A study of Mus musculus with 32 samples.

Results

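The wild-type Oct4 peak list of J1 mouse embryonic stem (ES) cells held 2571 peaks, and 1752 of them form the set described here: Oct4 sites at which neither total RNA polymerase II (RNAP) nor the promoter mark H3K4me3 was called in the same cells. They were selected on 3 wild-type lists, as Oct4 peaks on chromosomes 1 to 19 that shared no base pair with an RNAP peak and none with an H3K4me3 peak. Of the 2571 peaks, 69 lay outside these chromosomes and 11 lay in a dense run of peaks on chromosome 3 that was set aside (positions are in mm9). Of the 2491 peaks that were left, the 1752 made up 70.3%, another 410 overlapped RNAP but no H3K4me3, and 329 overlapped H3K4me3. The wild-type RNAP and H3K4me3 values and the presence of the wild-type Oct4 peak are therefore what chose these sites, and are given only as a description.

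Oct4 is a POU-family transcription factor that keeps ES cells pluripotent, often by binding next to Sox2 at enhancers that lie far from the genes they serve. Active enhancers commonly recruit RNA polymerase II themselves and make short transcripts, while trimethylation of lysine 4 of histone H3 (H3K4me3) marks promoters. TAF5L and TAF6L, which resemble subunits of the general transcription factor TFIID, are parts of SAGA-type coactivators. These acetylate histone H3, lysine 9 (H3K9ac) included, and are brought to DNA by activators such as Myc.

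Chromatin immunoprecipitation with sequencing (ChIP-seq) was made for 7 targets in 3 genotypes of J1 ES cells: wild type, Taf5l-KO and Taf6l-KO, the knockouts lacking the gene named. The targets were Oct4, Myc, H3K4me3, H3K9ac, RNAP, and RNAP phosphorylated on serine 5 (RNAP-ser5, found early in the transcription cycle) or on serine 2 (RNAP-ser2, found during elongation) of its C-terminal repeats. TAF5L-FB and TAF6L-FB, which carry a Flag-Biotin tag, were pulled down with streptavidin from 2 lines each in a wild-type background, with BirA cells, which have the biotin ligase, as the control. All cells grew in serum medium with LIF, and the labels do not say whether a knockout line is 1 clone. Each antibody and genotype had 1 library, so differences between genotypes have no replicate check and no test was made between them. The 21 antibody libraries held 1702363 to 22968606 unique tags and the 5 tagged and BirA libraries 18292747 to 27775010. The Oct4 libraries held 8522959 unique tags in wild type, 7068955 in Taf5l-KO and 6628480 in Taf6l-KO. The wild-type RNAP library held 5174150 unique tags, fewer than the 15865460 of Taf5l-KO and the 7236644 of Taf6l-KO, and the part that this had in what was called absent in wild type was not tested.

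The name "distal sites without polymerase" stands for the rule and was not checked against gene starts. Only the gap to called peaks was measured, and some of the 1752 lay close to one. The gap to the nearest wild-type RNAP or H3K4me3 peak had a median of 17281 bp, with quartiles of 4164 and 49385 bp. It was under 1000 bp at 215 sites (12.3%) and under 100 bp at 82. The phosphorylated forms, which the rule did not use, had a wild-type peak at 94 sites (5.37%), beside 18.1% of all Oct4 peaks. The 3 sites nearest to such a peak abutted it with a gap of 0 bp, among them chr1:71720186-71720376 (Oct4 fold enrichment 7.79). Just across the limit, chr5:137794001-137794109 (fold 7.59) shared 1 bp with an H3K4me3 peak and was left out. Of the 739 Oct4 peaks left out by the overlap, 124 shared under 100 bp with such a peak. At the other end, chr11:39492195-39492325 (fold 6.96) lay 557856 bp from any wild-type RNAP or H3K4me3 peak, and no other list used here had a peak at it. The next farthest sites, chr2:45591888-45592012 (528801 bp) and chr6:98433431-98433552 (525195 bp), both had Oct4 peaks again in both knockouts. Gene names and sequence at these positions were not analysed here.

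The sites covered a wide range of strength. The fold enrichment of a peak is the authors' ratio of its pileup to the local background, and here it was used only to rank and describe peaks within a list. In wild type it ran from 3.03 to 87.9 with a median of 7.65 and quartiles of 6.4 and 10.1. The median was 8.22 at the Oct4 peaks with RNAP and no H3K4me3 and 7.59 at those with H3K4me3. Median peak length was 147 bp at the sites without either, 172 bp with RNAP and 162 bp with H3K4me3. The sites without polymerase were thus not the weak end of the Oct4 list by median fold enrichment, and their peaks were shorter at the median. Their upper quartile of fold, 10.1, was below the 11 with RNAP and the 10.5 with H3K4me3. Their median −log10 q, as deposited, was 7.17, against 9.22 with RNAP and 7.17 with H3K4me3. The highest fold enrichment among all 2491 Oct4 peaks was at one of the sites without polymerase, chr3:121848313-121848797.

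Oct4 was called again at many of these sites in cells lacking either factor, more often in Taf5l-KO. The Oct4 list of Taf5l-KO was also the longer, with 3046 peaks against 2058 in Taf6l-KO. The part that list length had in this order was not tested. An Oct4 peak of Taf5l-KO overlapped 1056 of the 1752 sites by at least 1 bp (a site so overlapped is called kept), which is 60.3% (57.9 to 62.6, exact Clopper-Pearson 95% interval), beside 59.7% of all 2491 Oct4 peaks. In Taf6l-KO it was 831 sites, 47.4% (45.1 to 49.8), beside 47.2%. Both shares lay close to those over all Oct4 peaks, of which these sites are the main body, and so say nothing that sets the sites apart. All intervals given are of this kind; they reflect counting error alone and treat sites as independent, which neighbours are not.

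The 2 other classes stood on either side of them. In Taf5l-KO an Oct4 peak was found again at 72.4% (67.8 to 76.7) of the Oct4 peaks with RNAP and no H3K4me3 and at 40.4% (35.1 to 45.9) of those with H3K4me3. In Taf6l-KO the shares were 53.4% (48.5 to 58.3) and 38.3% (33 to 43.8). Sites with neither mark therefore fell between the others in both knockouts. The sites were divided into 10 bins of wild-type fold enrichment of about equal size. Weighting the other classes to these bins gave 70.3% and 39% for Taf5l-KO, then 50% and 36.7% for Taf6l-KO, the same order. In Taf6l-KO the 50% lay close to the 47.4% of the sites with neither mark. There the unweighted intervals of these 2 classes (48.5 to 58.3 and 45.1 to 49.8) also overlapped. The order is a description of these libraries and was not tested.

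**Figure D1:**
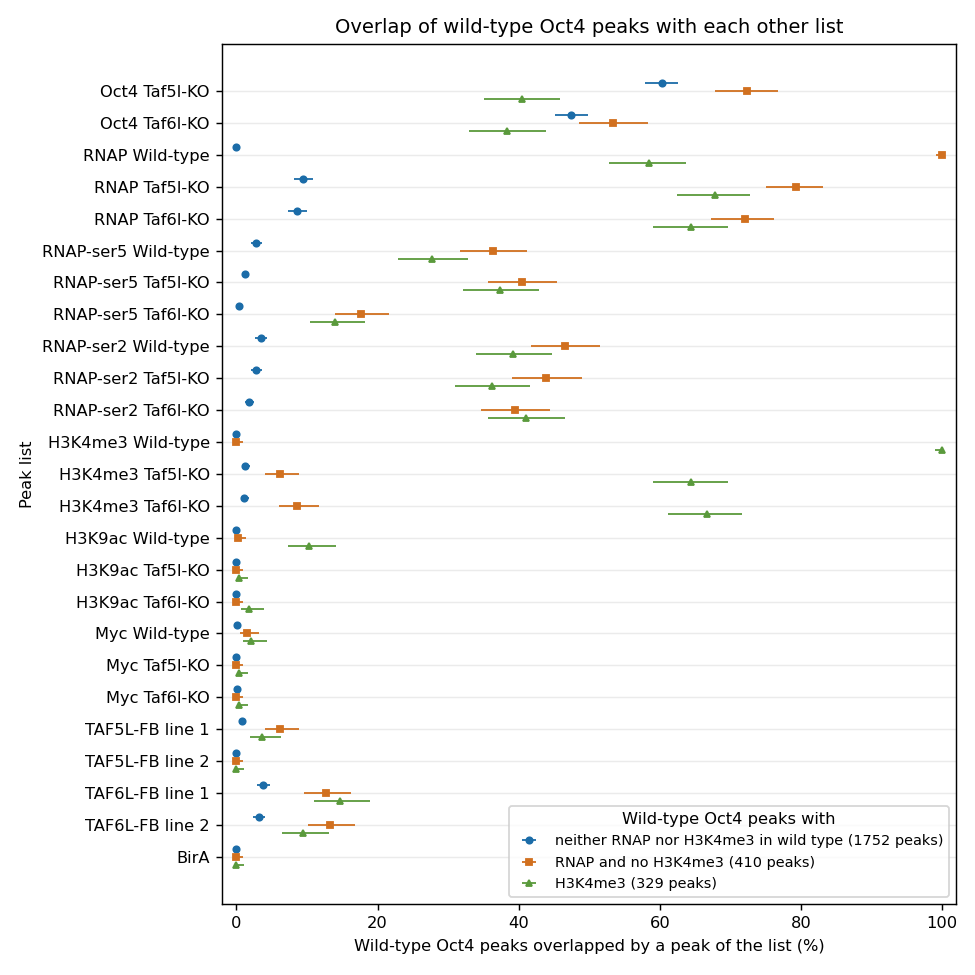
Share of wild-type Oct4 peaks (%, x axis) overlapped by a peak of each other list (y axis), for the 1752 peaks with neither RNAP nor H3K4me3 in wild type, the 410 with RNAP and no H3K4me3 and the 329 with H3K4me3. Points are shares and bars exact 95% intervals. The values of 0 and 100% for RNAP and H3K4me3 in wild type follow from how the classes were made. Outside the Oct4 lists the sites without either mark are highest for RNAP of Taf5l-KO (9.47%) and of Taf6l-KO (8.56%).

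Sites kept in both knockouts and in neither were the commonest patterns. Both had an Oct4 peak at 697 sites (39.8%, beside 39.4% of all Oct4 peaks), and neither had one at 562 (32.1%, beside 32.6%). Taf5l-KO alone had one at 359 (20.5%, beside 20.2%) and Taf6l-KO alone at 134 (7.65%, beside 7.79%). All 4 shares lay close to those over all Oct4 peaks, and both knockouts are set against the same wild-type list. Where Oct4 was called again, the summit moved by a median of 21 bp in each knockout, and 84.8% of summits in Taf5l-KO and 82.9% in Taf6l-KO lay within 50 bp of the wild-type summit. The other classes had medians of 20 to 21 bp and 82.7% to 88.1% within 50 bp, and the required overlap of short peaks itself limits the shift.

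Strength in wild type went with being found again. In the weakest of the 10 bins of fold enrichment (3.03 to 5.5) an Oct4 peak was found again at 45.3% (37.4 to 53.4) of sites in cells lacking Taf5l and 38.4% (30.8 to 46.4) in cells lacking Taf6l. In the strongest bin (13.2 to 87.9) it was 94% (89.4 to 96.9) in the first and 88.5% (82.9 to 92.7) in the second. The rise was not even: in Taf6l-KO the share was 26.9% in the fourth bin, below the weakest, and in Taf5l-KO it stayed between 40.1% and 51.4% over the 6 weakest bins. Sites with a peak in neither knockout were 44.7% of the weakest bin and 3.3% of the strongest. The strongest bin of the Oct4 peaks with H3K4me3 had shares of 85.7% and 87.8%, and those with RNAP 95.1% and 93.4%, so the 3 classes came close together at the top.

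**Figure D2:**
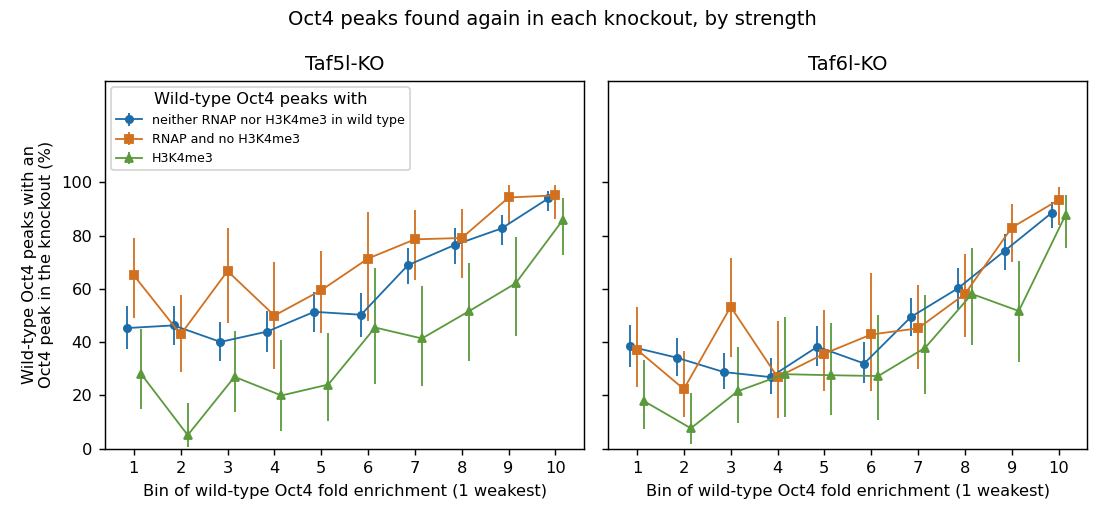
Share of wild-type Oct4 peaks with an Oct4 peak in Taf5l-KO (left) and Taf6l-KO (right), in %, against the bin of wild-type Oct4 fold enrichment (1 weakest, 10 strongest; limits set on the sites without RNAP or H3K4me3). Bars are exact 95% intervals; from the weakest bin to the strongest, sites with neither mark go from 45.3% to 94% on the left and from 38.4% to 88.5% on the right.

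The same ordering showed in the medians. Wild-type fold enrichment had a median of 9.47 at the sites kept in both knockouts, 7.59 at those kept in Taf5l-KO only, 7.35 at those kept in Taf6l-KO only and 6.96 at those kept in neither. Median length was 176 bp at sites kept in both and 126 bp at sites kept in neither. The strongest site kept in neither had a fold of 19.5, and all 28 sites stronger than it were kept in both. The ranges still overlapped widely, since a site of fold 3.03 was also kept in both.

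**Figure D3:**
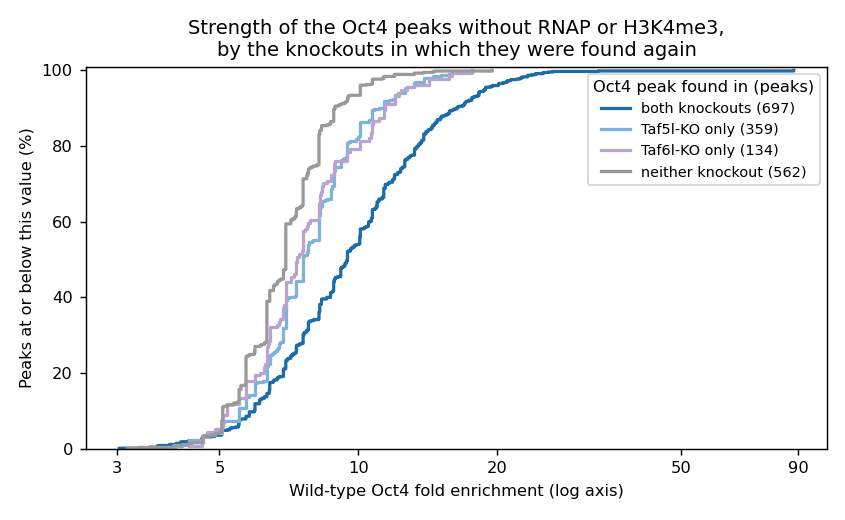
Cumulative share of the sites (%, y axis) at or below a wild-type Oct4 fold enrichment (x axis, log scale), for sites with an Oct4 peak in both knockouts, in 1 of them or in neither. The curve for both knockouts (median 9.47) lies to the right of that for neither (median 6.96), with the sites of a single knockout between.

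Single sites show the range. At chr3:121848313-121848797, the strongest, Oct4 fold enrichment was 87.9 in wild type, 66.4 in Taf5l-KO and 40 in Taf6l-KO. The next, chr8:60211640-60211982, had 33.1, 37.1 and 39.6. The values come from lists called separately on libraries of unequal depth and are not a comparison of binding. At chr5:132002714-132002927 the 3 values were 26.4, 20.8 and 18.8. At chr12:55203522-55203802 they were 25.8, 32.1 and 16.1, and at chr2:24767842-24768079 they were 25.2, 29 and 12.1. Wild type and Taf6l-KO ranked these 5 sites alike, while Taf5l-KO placed the chromosome 5 site last. None of these 5 sites had a TAF region.

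The strongest sites with no Oct4 peak in either knockout were weaker in wild type. At chr4:127489334-127489543 the wild-type fold was 19.5, the site lay 159309 bp from wild-type RNAP or H3K4me3, and no other list had a peak there. At chr1:174253488-174253735 (fold 14.6) no other list had one either. The 3 that followed each carried another signal in some list. At chr16:31891099-31891303 (fold 14.5) RNAP was called in Taf6l-KO and TAF6L-FB in line 2. At chr17:29604501-29604676 (fold 13.9), 135 bp from a wild-type RNAP or H3K4me3 peak, RNAP was called in Taf5l-KO and H3K4me3 in Taf6l-KO. At chr11:98564558-98564725 (fold 13.2) RNAP-ser5 was called in wild type and Myc in Taf6l-KO (fold 11.3).

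Sites that differed between the knockouts reached a like strength on both sides. The strongest kept in Taf5l-KO only were chr9:88214140-88214330, chr8:88022652-88022818 and chr14:70751827-70752024, with wild-type folds of 17.6, 17 and 16 and Taf5l-KO folds of 7.2, 15.8 and 10.6. The strongest kept in Taf6l-KO only were chr6:65883237-65883461, chr6:4689913-4690084 and chr8:12760071-12760271, with wild-type folds of 17.6, 16 and 15.7 and Taf6l-KO folds of 14.6, 13.7 and 5.26. An absent peak here means that none passed the caller's threshold, not that Oct4 was shown to be gone.

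Total polymerase was called at few of the sites in the knockouts. RNAP of Taf5l-KO had a peak at 166 sites (9.47%, 8.14 to 10.9), beside 28.7% of all Oct4 peaks, and RNAP of Taf6l-KO at 150 (8.56%, 7.29 to 9.97), beside 26.4%. Both knockouts had one at 86 sites (4.91%, beside 22%) and at least 1 of them at 230 (13.1%, beside 33%). Since the rule set the wild-type share to 0, these shares cannot be read as a rise, and the whole-list shares include peaks chosen for having RNAP. Peaks crossed the limit in the other direction as well. Of the 1056 sites kept in Taf5l-KO, 136 (12.9%) had RNAP or H3K4me3 there, while of the 430 other wild-type Oct4 peaks kept there, 73 (17%) had neither. In Taf6l-KO it was 108 of 831 (13%) against 82 of 345 (23.8%).

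The RNAP peaks at these sites were weak and short. Their median fold enrichment was 4.36 in Taf5l-KO and 4.29 in Taf6l-KO, beside 4.77 and 4.94 over the whole lists. Their median length was 383 and 405 bp, beside 572 and 526 bp. With RNAP peaks held to −log10 q of at least 5, 22 sites (1.26%) in Taf5l-KO and 20 (1.14%) in Taf6l-KO were left, beside 11.7% and 11.9% of all Oct4 peaks. Most lay apart from polymerase called in wild type: 30 of the 164 RNAP peaks concerned in Taf5l-KO (18.3%) and 29 of 148 in Taf6l-KO (19.6%) reached over to a wild-type RNAP peak, and 134 and 119 did not. The sites themselves were a median of 9523 and 7297 bp from wild-type RNAP, and the remaining sites 36643 and 36030 bp.

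Where RNAP was called in a knockout, other signals were more often called too. Of the 86 sites with RNAP in both knockouts, 77.9% kept Oct4 in Taf5l-KO and 68.6% in Taf6l-KO, against 59.4% and 46.3% of the remaining 1666. Their median wild-type Oct4 fold was 8.03 against 7.63, and weighting to equal bins of strength gave 75.6% and 66% against 59.5% and 46.5%. TAF6L-FB had a region at 24.4% (15.8 to 34.9) of the 86 against 5.22% (4.2 to 6.4). A wild-type peak of a phosphorylated form was present at 22.1% against 4.5%. These groups were formed from the data and were not tested against each other. The strongest of the 86 were chr14:21036588-21036906, chr10:21708279-21708626 and chr1:72275648-72275854, with wild-type Oct4 folds of 24.3, 22.7 and 20.6. Each of these had a TAF6L-FB region. Each also kept Oct4 in both knockouts, as did all 28 sites with a fold above 19.5, so the choice by strength set that outcome.

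Phosphorylated polymerase was rarer still. RNAP-ser5 had a peak at 48 sites (2.74%, 2.03 to 3.62) in wild type, 21 (1.2%) in Taf5l-KO and 6 (0.342%) in Taf6l-KO, beside 11.6%, 12.4% and 4.98% of all Oct4 peaks. RNAP-ser2 had one at 60 sites (3.42%, 2.62 to 4.39), 48 (2.74%) and 30 (1.71%), beside 15.3%, 13.9% and 13.1%. The wild-type shares are touched by the choice of sites, since the forms overlap total RNAP. The RNAP-ser5 libraries held 3871824 unique tags in wild type, 8807133 in Taf5l-KO and 1702363 in Taf6l-KO, and the part that depth had in the order of the genotypes was not tested. In wild type 14 sites had both forms, 34 RNAP-ser5 only and 46 RNAP-ser2 only. The 14 are a much larger part of the 48 sites with RNAP-ser5 than the 3.42% of all sites with RNAP-ser2. Whether the 2 forms go together was not tested. With peaks held to −log10 q of at least 5, 1 site with RNAP-ser5 and 0 with RNAP-ser2 were left, so these peaks were weak. Oct4 was found again at 52.1% (41.6 to 62.5) of the 94 in Taf5l-KO and at 47.9% (37.5 to 58.4) in Taf6l-KO, against 60.7% and 47.4% of the sites with neither form. At equal strength the shares were 45.8% and 43.2% against 60.9% and 47.7%. In Taf6l-KO the unweighted shares were too close to set an order, and the weighted shares have no interval. No polymerase peak of any of the 9 lists (3 forms in 3 genotypes) touched 1441 sites (82.2%), beside 60.3% of all Oct4 peaks.

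The promoter and acetylation marks stayed almost wholly away from the sites. H3K4me3 had a peak at 22 sites (1.26%) in Taf5l-KO and 20 (1.14%) in Taf6l-KO, beside 10.4% and 11% of all Oct4 peaks, and at 6 sites in both. Again the wild-type value was 0 by the rule. H3K9ac, the mark that SAGA-type complexes lay down and which was not used to choose the sites, had a peak at 0 of 1752 sites in each of the 3 genotypes, which allows a share of up to 0.171% (3 counts of the total; the exact interval ends at 0.21%). Over all Oct4 peaks the share was 1.41% in wild type, 0.0401% in Taf5l-KO and 0.241% in Taf6l-KO. The wild-type share lay nearly all at H3K4me3 (34 of 35 peaks). The rule removes such peaks, so a count near 0 was almost set by the choice of sites. Oct4 peaks with RNAP and no H3K4me3 were alike, with 1 of 410 (0.244%) in wild type and 0 in each knockout. The wild-type H3K9ac list had 4133 peaks and the knockout lists 110 and 899, so there were few peaks to overlap.

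Myc was all but missing too. Its wild-type list of 539 peaks touched 2 of the sites (0.114%), beside 0.602% of all Oct4 peaks. These were chr9:106070177-106070288, with an Oct4 fold of 6.88 and a Myc fold of 6.09, and chr9:45157412-45157522, with 6.77 and 7.25. The second kept Oct4 in Taf6l-KO and had RNAP in both knockouts, and the first had no other peak. Myc of Taf5l-KO touched 0 sites and Myc of Taf6l-KO touched 1. Those lists hold 34 and 23 peaks in all.

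The tagged cofactors were found at a small part of the sites, TAF6L-FB more than TAF5L-FB. A TAF6L-FB region of either line overlapped 108 sites (6.16%, 5.08 to 7.39), beside 10.3% of all Oct4 peaks, 20.2% of those with RNAP and 20.1% of those with H3K4me3. The lines seldom marked the same site: line 1 alone had 53, line 2 alone 42 and both 13. A TAF5L-FB region overlapped 14 sites (0.799%, 0.438 to 1.34), beside 2.05% of all Oct4 peaks. All 14 came from line 1, whose list has 139 peaks, while line 2 has 14 peaks and touched none of the 2491. The TAF6L-FB lists are longer, with 1144 peaks in line 1 and 639 in line 2. The part that list length had in the order of the 2 proteins was not tested. Of the 14 sites with TAF5L-FB, 9 also had TAF6L-FB. The BirA control list touched 0 sites.

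Sites with a TAF6L-FB region were somewhat stronger in Oct4, with a median wild-type fold of 8.88 against 7.59. They kept Oct4 in 68.5% (58.9 to 77.1) of cases in Taf5l-KO, and in Taf6l-KO it was 57.4% (47.5 to 66.9), against 59.7% and 46.8% of the sites without one. Weighted to equal bins of strength the shares were 61.8% and 49.4% against 60.2% and 47.4%, so the gap was narrower at equal strength. Sites with a TAF6L-FB region thus did not lack an Oct4 peak more often in Taf6l-KO than sites without one. RNAP was called at 31.5% (22.9 to 41.1) of them in Taf5l-KO, and in Taf6l-KO it was 29.6% (21.2 to 39.2), against 8.03% and 7.18%, a gap that the weighting left at 27.3% and 30.9% against 8.08% and 7.24%.

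The 5 strongest Oct4 sites with a TAF region all kept Oct4 in both knockouts. All 28 sites with a wild-type fold above 19.5 did so, with or without a TAF region, so the choice by strength set this outcome. At chr7:52806931-52807173 the Oct4 fold was 25.2 in wild type, 35.2 in Taf5l-KO and 22.7 in Taf6l-KO, with TAF6L-FB line 1 at 4.53. At chr13:66811939-66812293 it was 24.2, 22.5 and 31.3, and this site had regions of TAF5L-FB line 1 and of both TAF6L-FB lines, with folds of 3.05, 4.45 and 3.57. It also had RNAP-ser2 in wild type and RNAP in Taf6l-KO. At chr13:113252715-113252933 the Oct4 values were 23.3, 30.2 and 9.27, and RNAP and H3K4me3 were called in Taf5l-KO, 424 bp from a mark of the wild type. The other 2, on chromosomes 14 and 10, are those with RNAP in both knockouts given above.

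Polymerase and TAF6L-FB were called less often with distance from marked chromatin. The gap is measured to wild-type RNAP and H3K4me3 peaks. A fall of the polymerase and H3K4me3 lists with distance is therefore partly set by the measure. Under 1000 bp from a wild-type RNAP or H3K4me3 peak, 29.3% (23.3 to 35.9) of the sites had RNAP in Taf5l-KO, and in Taf6l-KO it was 27.9% (22 to 34.4). From 50000 bp on it was 3.47% (1.96 to 5.66) and 3.01% (1.61 to 5.09). These 2 distance classes had a wild-type peak of phosphorylated polymerase at 12.6% and 1.62% of sites, and a TAF6L-FB region at 10.2% (6.52 to 15.1) and 3.47% (1.96 to 5.66). H3K4me3 of Taf5l-KO was at 6.98% of the sites nearest and at 0.231% of those farthest. Oct4, which the gap does not use, showed no such gradient, and the contrast was not tested. It was found again in Taf5l-KO at 63.7%, 57.6%, 58.1% and 64.6% of sites from the nearest class to the farthest, and in Taf6l-KO at 54.4%, 46.2%, 45.8% and 47.7%. Median Oct4 fold differed little between the 4 distance classes (7.84, 7.79, 7.59 and 7.59).

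**Figure D4:**
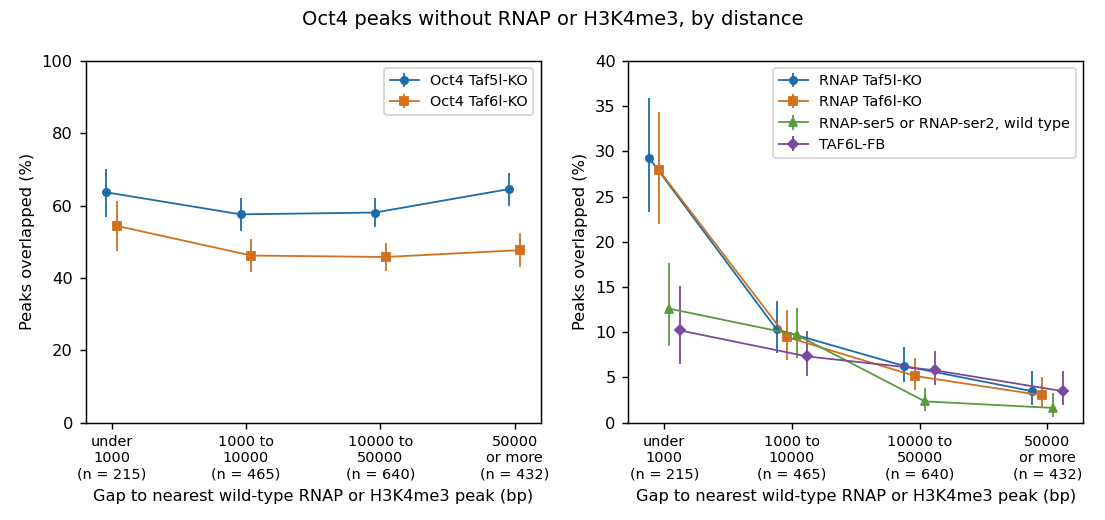
Share of the sites (%, y axes) overlapped by a peak, against the gap in bp to the nearest wild-type RNAP or H3K4me3 peak (x axes), for Oct4 of the knockouts (left) and for RNAP of the knockouts, phosphorylated RNAP of wild type and TAF6L-FB (right, with a shorter axis). Bars are exact 95% intervals; RNAP goes from 29.3% to 3.47% in Taf5l-KO with distance while Oct4 stays between 57.6% and 64.6%.

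Most sites stood alone. With sites under 10000 bp apart taken as a group, 1637 (93.4%) had no other member near, 106 formed 53 pairs and 9 formed 3 groups of 3. Sites in groups kept Oct4 about as often as lone ones, 58.3% (48.7 to 67.4) against 60.4% in Taf5l-KO and 43.5% (34.3 to 53) against 47.7% in Taf6l-KO. Both knockouts kept Oct4 at 32.2% (23.8 to 41.5) of the sites in groups against 40.3% (37.9 to 42.7) of lone ones. By pair, in Taf5l-KO both sites were kept in 18 pairs, 1 in 28 and none in 7, and in Taf6l-KO the counts were 11, 26 and 16. Whether pairs were split more often than the kept shares alone would give was not tested. The group on chromosome 16 was split. Its site at 13977273 to 13977445 was kept in both knockouts, that at 13976611 to 13976807 in Taf5l-KO only and that at 13981872 to 13981999 in neither. The group on chromosome 10 was not kept at all. Its sites at 33950075, 33953872 and 33954069 had Oct4 folds of 5.06, 6.55 and 5.96, no Oct4 peak in either knockout, and a TAF6L-FB line 1 region each, the last 2 sharing 1 region. In the group on chromosome 9, at 78208413, 78216570 and 78222966, the first was kept in Taf5l-KO only, the last in Taf6l-KO only and the middle one in neither, and each had a polymerase peak in some list.

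Applied to the lists of each genotype in turn, the same rule gave classes of 1752, 2102 and 1415 peaks that made up nearly the same share of each list. Oct4 peaks with neither RNAP nor H3K4me3 were 70.3% (68.5 to 72.1) of 2491 in wild type, 71.1% (69.4 to 72.7) of 2956 in Taf5l-KO and 70.5% (68.4 to 72.5) of 2008 in Taf6l-KO. The rest was divided differently: peaks with H3K4me3 were 13.2% in wild type, 8.29% in Taf5l-KO and 10.4% in Taf6l-KO, and peaks with RNAP alone 16.5%, 20.6% and 19.1%. The sites behind the like shares were not the same. Of the 2102 such peaks of Taf5l-KO, 912 lay at the wild-type sites, 74 at other wild-type Oct4 peaks and 1116 (53.1%, 50.9 to 55.2) at none. Of the 1415 of Taf6l-KO it was 714, 80 and 621 (43.9%, 41.3 to 46.5). The peaks with no wild-type counterpart were weaker, with median folds of 7.38 against 9.5 in Taf5l-KO and 7.2 against 8.89 in Taf6l-KO. The strongest 10% of each knockout list lay at the 1752 sites in 192 of 302 cases (63.6%) in Taf5l-KO and 116 of 204 (56.9%) in Taf6l-KO, the whole lists in 35.7% and 41.3%.

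**Figure D5:**
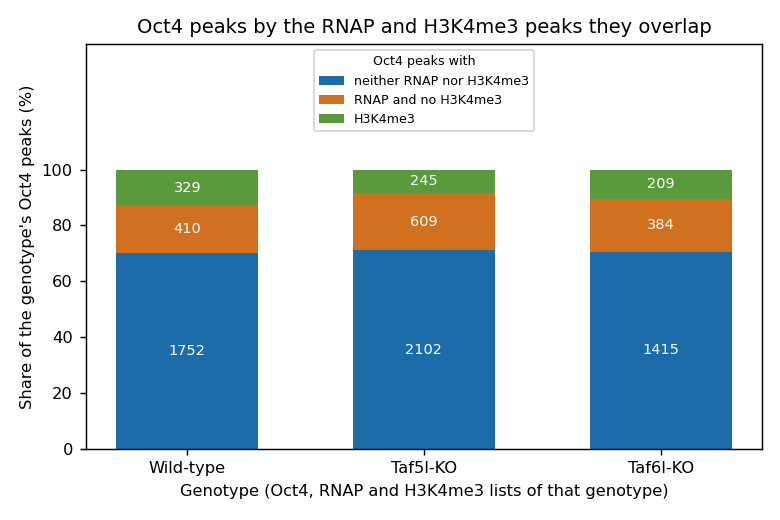
Oct4 peaks of each genotype (x axis) by whether they overlap RNAP or H3K4me3 peaks of that genotype, as a share of its Oct4 peaks (%, y axis, from 0), with the number of peaks printed in each bar. Peaks with neither make up 70.3%, 71.1% and 70.5%.

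By state in the knockout, 920 of the 1752 sites (52.5%, 50.1 to 54.9) kept Oct4 in Taf5l-KO with neither RNAP nor H3K4me3, 121 (6.91%) kept it with RNAP and 15 (0.856%) with H3K4me3. In Taf6l-KO the numbers were 723 (41.3%, 38.9 to 43.6), 96 (5.48%) and 12 (0.685%). Sites with no Oct4 peak rarely carried the other marks. RNAP or H3K4me3 was called at 44 of them in Taf5l-KO (2.51% of the 1752) and at 55 in Taf6l-KO (3.14%). The other 652 and 866 were empty of all 3. The state with RNAP or H3K4me3 but no Oct4 peak made up 20.2% and 33.9% of Oct4 peaks with RNAP alone. It made up 48.3% and 48.6% of those with H3K4me3. Oct4 kept with neither mark made up 13.2% and 14.6% of the peaks with RNAP alone and 5.78% and 6.69% of those with H3K4me3. The rule had set both marks to 0 at the 1752 sites in wild type, so the choice of sites touches all these shares. Over the 18 lists of targets other than Oct4 and the joined TAF regions together, 1364 sites (77.9%, 75.8 to 79.8) had no peak at all, beside 54.8% of all Oct4 peaks, which are these same 1364 because each of the 739 Oct4 peaks outside the set overlaps RNAP or H3K4me3 in wild type. For these sites Oct4 is the one signal that the lists hold.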

How the data were processed

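The members and lists were chosen with earlier results of these data known. The 26 deposited files are peak lists, 1 per library, so nothing was pooled. Alignment to mm9 used Bowtie2 2.3.2, and deepTools 2.5.3 is also named, per the submitters' processing notes. MACS2 2.1.1.20160309 called peaks against input at a q cutoff of 0.05 with 1 tag per position, and scaled the larger library down to the smaller, per the file headers. Broad calling was used for H3K9ac, H3K4me3 and the 3 polymerase antibodies (second cutoff 0.1) and a fragment size of 300 bp for the TAF lists, per the file headers. Broad calling and unequal depth both affect how often an overlap is found. The fold enrichment is the authors' deposited ratio per peak, and −log10 q is likewise as deposited.

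Overlaps (1 bp, mm9, 1-based) were counted with Python 3.11.15, numpy 2.4.6 and pandas 2.3.3, and exact 95% intervals with SciPy 1.17.1. The steps were tested on simulated lists. For TAF regions, peaks of the lines were joined and any at a BirA peak removed. "Kept" means overlapped by an Oct4 peak of the knockout. Weighted shares average over 10 bins of wild-type Oct4 fold, weighted as the sites are distributed. With 1 library per antibody and genotype, the genotypes were not tested against each other and there are no p-values.

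Regions named are the 5 of highest wild-type fold kept in both knockouts, the 5 in neither, the 3 in each alone, the 5 with a TAF region, those with wild-type Myc or H3K9ac (up to 3) and the 3 with RNAP in both knockouts. Also named are the 3 largest groups, and from the sites nearest to, farthest from and just failing the rule. The planned search for sequence motifs and nearest genes needs an mm9 genome and was not made. Alternatives were a −log10 q of at least 5, 50% coverage, a window of 1000 bp, the strongest 500 sites, exclusion of sites within 1000 bp of RNAP or H3K4me3 or with phosphorylated polymerase, merging within 1000 bp, and for TAF regions each line left out, regions of both lines only and BirA regions kept.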

Additional observations from a re-analysis of the deposited data

How the results depend on the processing

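Of 45 alternatives, 22 left the share within its 95% interval. With −log10 q of at least 5, Oct4 in Taf5l-KO was at 63% of sites, RNAP in Taf5l-KO at 1.26%, RNAP in Taf6l-KO at 1.14%, wild-type RNAP-ser5 at 0.0571% and RNAP-ser2 at 0%. In the strongest 500 sites Oct4 was kept at 84.6% in Taf5l-KO, 75.4% in Taf6l-KO and in neither at 9%. There RNAP of Taf5l-KO was at 12.8% and of Taf6l-KO at 12%, wild-type RNAP-ser2 at 4.6% and TAF6L-FB at 9.2%. A window of 1000 bp gave 13.6% for RNAP of Taf5l-KO and 14% for that of Taf6l-KO, RNAP-ser5 6.51% and RNAP-ser2 7.82%, which a wider window can only raise. Without sites within 1000 bp of wild-type RNAP or H3K4me3, RNAP was at 6.7% and 5.86% and RNAP-ser2 at 2.6%. TAF6L-FB was at 3.14% to 3.77% with 1 line left out and at 0.742% for regions of both lines. TAF5L-FB was at 0% without line 1 and 0.799% without line 2. Apart from what each alternative's construction shows, the cause was not tested. No paired analysis was possible because each antibody and genotype had 1 library and no result comes from a test.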

Other observations

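Chromosome X was outside the rule and gave lower values. Of its 62 wild-type Oct4 peaks, 45 had neither RNAP nor H3K4me3 in wild type. An Oct4 peak was found again at 20 of these (44.4%) in Taf5l-KO and at 10 (22.2%) in Taf6l-KO. On chromosomes 1 to 19 the share found again per chromosome ran from 51.5% (chromosome 12) to 68.3% (chromosome 3) in Taf5l-KO and from 37.5% (chromosome 18) to 55.9% (chromosome 6) in Taf6l-KO. The difference was not tested, and 45 sites leave wide counting error.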
